A study of Mus musculus with 19 samples.

Results

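The effect of a choline-deficient diet on the liver transcriptome was examined in mice that had received remote limb ischemic conditioning. The comparison set the 4 samples of group CDAHFD_RIC against the 5 samples of group NC_RIC, which are 9 of the 19 liver samples of the series, chosen by their titles. Both groups came from wild type (WT) mice and both had been conditioned, and they differed in diet: CDAHFD, a high-fat diet without choline in which single amino acids stand in for protein, or normal chow (NC). The other 10 samples came from wild type mice on these diets given a sham procedure (5 NC_sham and 5 CDAHFD_sham), and are used below only where the diet difference of sham mice is set beside that of conditioned mice. Strain, sex, age, time on the diet and the schedule of conditioning are not in the labels. The labels number the samples within a group but do not say whether each came from its own animal, and the p-values cover only the spread among the samples given.

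Choline is a building block of phosphatidylcholine, which the liver needs to coat very-low-density lipoproteins (VLDL). When choline is scarce, triglyceride is not exported and collects in lipid droplets, and on a high-fat choline-deficient diet this is followed by inflammation, macrophage infiltration and fibrosis, which is why the diet serves as a model of steatohepatitis. In remote limb ischemic conditioning the blood flow of a limb is repeatedly interrupted and restored, a procedure known for effects on distant organs.

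Expression was deposited as FPKM, fragments per kilobase of gene length scaled to the size of the library, so levels can be compared between genes. Levels below are mean FPKM ± SD (n = 5 for NC_RIC and n = 4 for CDAHFD_RIC). Differences are CDAHFD_RIC minus NC_RIC on the log2(FPKM + 1) scale with the standard error (SE), which understates the change of genes near or under 1 FPKM. All 10577 genes averaging 1 FPKM or more over the 19 samples were tested with limma, and a gene passed at a Benjamini-Hochberg adjusted p under 0.05. The depth is not in the table, and low values of single-exon genes placed it at roughly 16200000 to 26500000 reads in the 9 samples. That estimate takes the most common low value as 1 read. Only 30.4 to 32.3% of low values per sample lay near whole multiples of it, so the depth is uncertain.

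The liver label was checked against cell type markers. Albumin (Alb), the main plasma protein made by hepatocytes, stood at 48982 ± 4900.4 FPKM in NC_RIC and 30916 ± 5259 in CDAHFD_RIC, and the summed level of 10 hepatocyte markers was 57924 to 69573 and 35613 to 47454. Markers of skeletal muscle summed to at most 1.58 FPKM in any of the 9 samples, those of mesothelium to at most 0.681 and those of pancreas to at most 8.90. The blood markers (chiefly hemoglobins) summed to 194 to 629 in NC_RIC and 139.9 to 412 in CDAHFD_RIC. The first principal component of the 9 samples held 80.6% of the variance and separated the diets. The second, with 4.02%, set CDAHFD_RIC sample 1 (23.9) and sample 3 (-17.1) at opposite ends, with the other 7 samples between -4.61 and 5.73. The sum of FPKM over named genes was 502007 ± 8381 in NC_RIC and 435313 ± 11522 in CDAHFD_RIC (two-sided exact permutation test, p = 0.00794, the smallest that this design allows).

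Of 10577 genes, 7435 passed (70.3%): 6728 were higher (63.6%) and 707 lower (6.68%) in CDAHFD_RIC, and the median difference over all tested genes was 0.42. A difference of at least 1 was reached by 1469 of the higher and 212 of the lower genes. The groups did not overlap for 6132 genes (58%), 53.3% of all tested genes being higher and 4.63% lower in every CDAHFD_RIC sample. The balance of the directions rests on the scaling of the samples. When each sample was scaled by the median of its ratios to the average sample, the median difference moved to -0.01 and 2673 genes were higher (25.3%) and 2597 lower (24.6%), and with quantile normalization 2547 were higher (24.1%) and 2854 lower (27%). Of the genes called as deposited, 3380 were called in the same direction after median-ratio scaling and 236 in the opposite one. The counts of the gene lists are therefore also given after median-ratio scaling. They are to be read beside the shares of all genes, 63.6% higher and 6.68% lower as deposited, and 25.3% and 24.6% after that scaling.

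**Figure D1:**
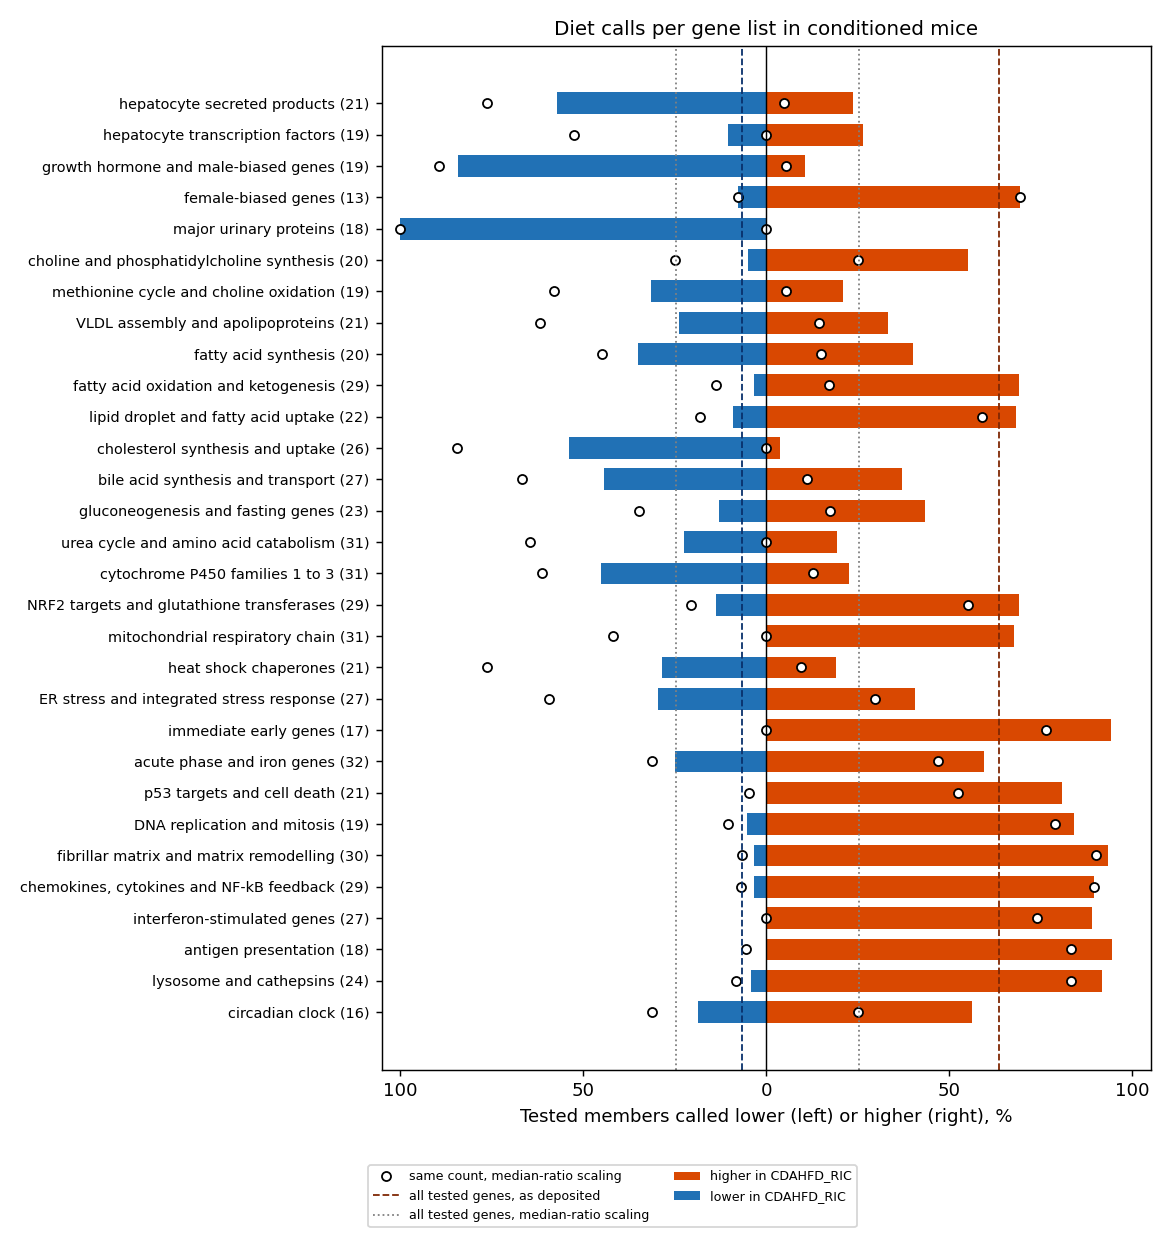
Share of the tested members of each gene list (number in brackets) that were called higher (right, orange) or lower (left, blue) in CDAHFD_RIC than in NC_RIC, in percent. Dashed lines mark the shares over all tested genes, 63.6% higher and 6.68% lower, open circles the shares after median-ratio scaling, and dotted lines its shares over all genes; major urinary proteins, male-biased genes and cholesterol synthesis lie to the left on both scales, and matrix, chemokine and cytokine, lysosome and antigen presentation genes to the right.

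The deepest falls were in the major urinary proteins (Mup), small lipocalins that male mouse liver makes in large amounts under the pulses of growth hormone and that carry pheromones in urine. All 18 tested members of the 22 listed fell, as deposited and after median-ratio scaling, with a median difference of -7.93, where 6.68% of all tested genes fell. Together they made up 5.57 ± 0.842% of the summed FPKM in NC_RIC and 0.308 ± 0.147% in CDAHFD_RIC (two-sided exact permutation test, p = 0.00794). Mup7 (chromosome 4, 60066469 to 60070475, mm10) stood at 3252, 3628, 2468, 5203 and 3173 FPKM in NC_RIC samples 1 to 5 and at 0.152, 2.04, 0.404 and 0 in CDAHFD_RIC samples 1 to 4. The CDAHFD samples were near or at 0, and the gene fell by 11.17 (SE 0.28, adjusted p = 1.23e-16). Mup10, Mup18, Mup13 and Mup9 were listed at 0 in all 4 CDAHFD_RIC samples, against 547 ± 19.8, 546 ± 36.4, 297 ± 15.8 and 115 ± 12.6 in NC_RIC. Mup20, also called darcin, kept the most: from 9184 ± 4164 to 1223 ± 580.3 FPKM, a 7.51-fold lower mean. The Mup genes are near-identical copies, so the share of each one is uncertain, while the fall of their sum does not depend on how reads were split among them. Whether reads that fit several copies were counted at all is not given, and would bear on the sum as well.

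Other genes with a male-biased or growth-hormone-dependent pattern fell as well. Of 19 tested, 16 fell and 2 rose, with a median of -2.63 (17 fell and 1 rose after median-ratio scaling). Elovl3 (chromosome 19, 46131897 to 46135694), a fatty acid elongase, read 106, 71.9, 39.0, 61.4 and 107 FPKM in NC_RIC and 1.53, 0.398, 0.159 and 0.816 in CDAHFD_RIC. Its groups lay far apart, and it fell by 5.47 (SE 0.30, adjusted p = 2.19e-11). Slco1a1, an organic anion uptake carrier, went from 82.4 ± 23.6 to 0.997 ± 0.264, Cyp4a12a, an arachidonic acid hydroxylase, from 129 ± 25.7 to 7.11 ± 1.88, and Hsd3b5, a ketosteroid reductase, from 8.97 ± 2.26 to 0.0635 ± 0.0660. Ugt2b38, a glucuronosyltransferase, was listed at 0 in all CDAHFD_RIC samples against 82.6 ± 20.1 in NC_RIC. The growth hormone receptor Ghr fell from 37.2 ± 2.48 to 19.4 ± 4.47 and its target Igf1 from 77.3 ± 12.2 to 58.2 ± 15.4, the latter a difference of -0.42 (adjusted p = 0.0145) that was -0.30 without CDAHFD_RIC sample 3 (adjusted p = 0.0748). The 2 that rose were Socs2, a feedback inhibitor of the growth hormone receptor, from 1.074 ± 0.769 to 3.51 ± 1.64, and Stat5b, its transcription factor, from 4.39 ± 0.786 to 6.01 ± 0.820; for Stat5b the difference was 0.39 as deposited and -0.086 after median-ratio scaling (adjusted p = 0.563).

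Genes known as female-biased rose and fell in shares close to those of all genes as deposited, and some of them rose strongly. Of 13 tested members of 18 listed, 9 rose (69.2%, against 63.6% of all tested genes) and 1 fell, with a median of 1.37 against 0.42 over all genes. After median-ratio scaling 9 rose and 1 fell, where 25.3% and 24.6% of all genes did. With no filter 10 of the 18 rose and the phenobarbital-inducible Cyp2b10 fell (-0.67, adjusted p = 0.00116), at 1.069 FPKM in NC_RIC and 0.325 in CDAHFD_RIC. Cyp2a4 (chromosome 7, 26307169 to 26315088), a steroid hydroxylase, had the largest rise of the genes named here: 0.444, 0, 2.89, 0 and 0.198 FPKM in NC_RIC and 99.0, 96.7, 145 and 123 in CDAHFD_RIC. All CDAHFD samples stood far above all chow samples, of which sample 3 was the highest, and the difference was 6.30 (SE 0.38, adjusted p = 7.98e-11). Cyp2b9 rose from 0.573 ± 0.974 to 80.2 ± 35.9 (difference 5.75, adjusted p = 1.67e-11). Cyp4a10, an omega-hydroxylase, fell from 1626 ± 324 to 1103 ± 520.3 (adjusted p = 0.0468), and its call was lost without any 1 of NC_RIC samples 1, 3, 4 and 5 or CDAHFD_RIC sample 1, where the difference was -0.27 (adjusted p = 0.283). Cyp2a4 and Cyp2a5, and Cyp2b9, Cyp2b10 and Cyp2b13, are close copies whose reads may be split; Cyp2a5 read 336 ± 129 and 468 ± 147 and did not pass (adjusted p = 0.169).

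**Figure D2:**
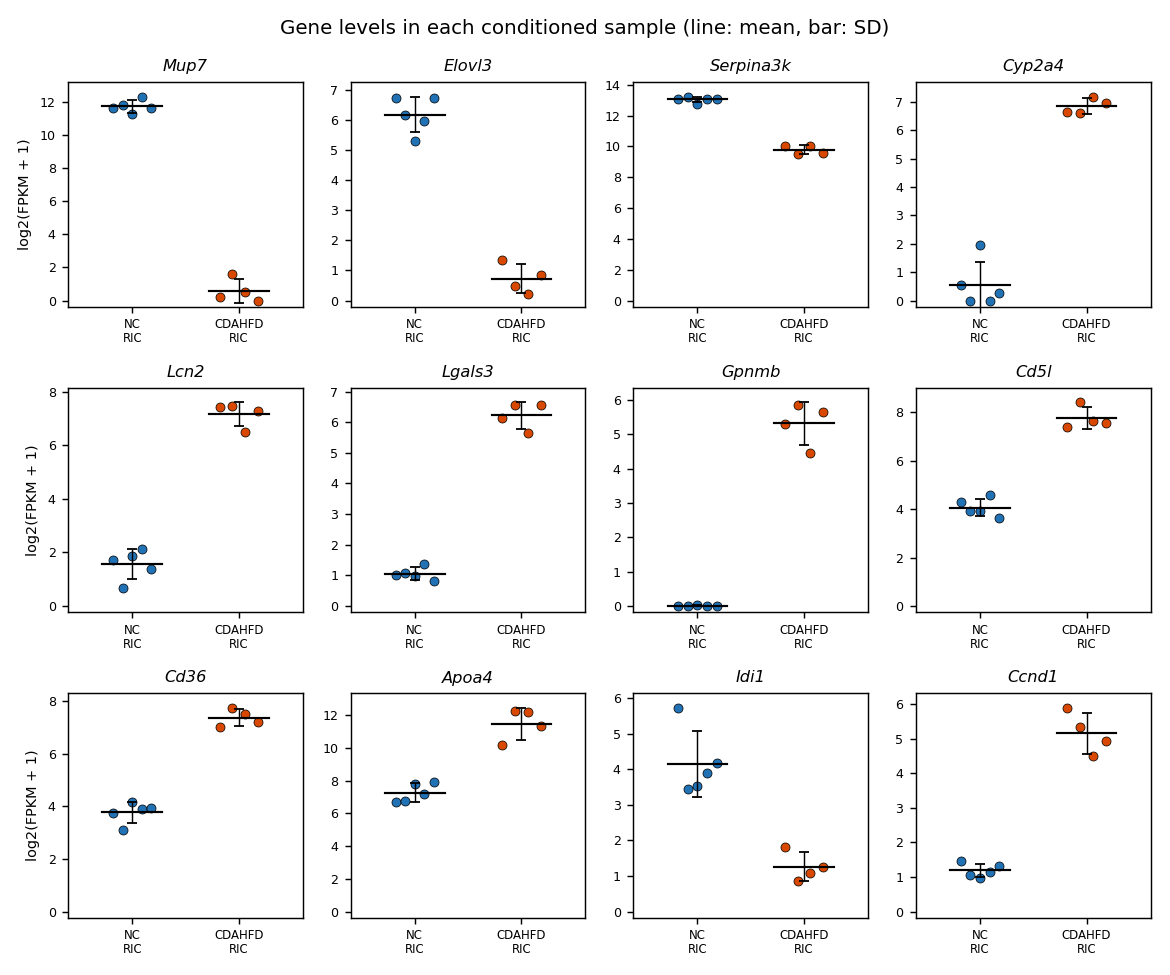
Level of 12 genes in each conditioned sample, as log2(FPKM + 1), for NC_RIC (blue, 5 samples) and CDAHFD_RIC (orange, 4 samples), with the mean (line) and SD (bar). In none of the 12 panels do the groups overlap, and Lgals3, Gpnmb and Lcn2 have their lowest CDAHFD value in sample 3.

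Hepatocyte products and enzymes fell in part. The lists here share members with the male-biased and female-biased ones above, among them Serpina1e, Cyp2d9, Cyp2b9 and Cyp2a4. Among 21 secreted plasma proteins 12 fell and 5 rose (16 and 1 after median-ratio scaling, 6 and 6 with quantile normalization). Alb fell by 0.67 (adjusted p = 1.30e-04) as deposited, but had no difference with quantile normalization, which fixes the highest gene of each sample at one value, while Hpx, the heme scavenger hemopexin, rose from 2754 ± 179 to 5392 ± 826. Of 19 hepatocyte transcription factors, 5 rose and 2 fell as deposited, against 0 and 10 after median-ratio scaling. Hnf4a, the master regulator of the hepatocyte state, fell on both (from 111 ± 12.9 to 83.1 ± 13.9, difference -0.42, adjusted p = 0.00356), a call that was lost when the samples were scaled to a common sum (-0.22, adjusted p = 0.118). In the drug- and steroid-metabolizing cytochrome P450 families 1 to 3, 14 of 31 tested members fell and 7 rose (19 and 4 after median-ratio scaling). Cyp2c54 fell from 256 ± 28.7 to 10.3 ± 6.84 FPKM, Cyp2f2, a marker of periportal hepatocytes, from 168 ± 31.6 to 41.7 ± 20.8, and Cyp2c29 from 247 ± 40.9 to 73.9 ± 11.8. Cyp2e1, the ethanol-metabolizing enzyme of pericentral hepatocytes, read 2353 ± 412 and 2304 ± 459 and did not pass as deposited (-0.036, adjusted p = 0.819), and was lower after median-ratio scaling (-0.60, adjusted p = 0.00145). The Cyp2c genes are close copies as well.

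Phosphatidylcholine is made either from choline or by methylation of phosphatidylethanolamine, which consumes the methyl donor S-adenosylmethionine. Of 20 tested genes of these routes, 11 rose and 1 fell, with a median of 0.50 against 0.42 over all genes, and 5 rose and 5 fell after median-ratio scaling. Slc44a3, of the choline transporter-like family, rose from 0.322 ± 0.107 to 2.35 ± 0.347, and Slc44a1, the choline transporter of that family, from 3.71 ± 0.282 to 6.78 ± 0.893. Lpcat3, which remodels phosphatidylcholine with polyunsaturated acyl chains, rose from 12.3 ± 1.48 to 29.3 ± 2.56 (difference 1.19, adjusted p = 2.47e-08). Pemt, the methylating enzyme, read 45.4, 49.8, 59.7, 51.8 and 57.5 FPKM in NC_RIC and 88.9, 75.1, 66.6 and 79.8 in CDAHFD_RIC. Its difference of 0.54 passed as deposited (adjusted p = 4.79e-05) but was -0.012 after median-ratio scaling (adjusted p = 0.927). Chpt1, the last enzyme of the route from choline, fell from 24.5 ± 1.64 to 14.7 ± 2.16 (-0.71, adjusted p = 8.05e-06).

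Within the methionine cycle and choline oxidation, 4 of 19 genes rose and 6 fell (1 and 11 after median-ratio scaling). Gnmt, which disposes of excess S-adenosylmethionine, fell from 689 ± 93.8 to 364 ± 98.2 and Ahcy, which clears the product S-adenosylhomocysteine, from 968 ± 95.2 to 622 ± 180.2. Nnmt, a nicotinamide methyltransferase, fell from 161 ± 46.3 to 61.4 ± 27.0. Mat2a, the S-adenosylmethionine synthetase that the adult liver normally keeps low, rose from 20.2 ± 4.03 to 52.3 ± 13.5 (difference 1.31, adjusted p = 3.10e-05), and Chdh, the first enzyme of choline oxidation, from 18.9 ± 1.58 to 31.1 ± 2.88. Bhmt, which uses the betaine made from choline, read 940.4, 585, 839, 1127 and 1044 FPKM in NC_RIC and 439, 723, 888 and 600.4 in CDAHFD_RIC, with overlapping groups (-0.46, adjusted p = 0.166); after median-ratio scaling it was lower by a difference of -1.03 (adjusted p = 0.00958). The adult liver isoform Mat1a did not pass either (1631 ± 372 and 1761 ± 502, difference 0.10 as deposited and -0.47 after median-ratio scaling, adjusted p = 0.653 and 0.0586). The rise of Chdh did not pass after median-ratio scaling (0.14, adjusted p = 0.106).

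Among genes of lipid uptake and storage, 15 of 22 tested rose (68.2%, against 63.6% of all tested genes) and 2 fell (9.09% against 6.68%), with a median of 0.81 against 0.42 over all genes (13 and 4 after median-ratio scaling, where 25.3% of all genes rose). A difference of at least 1 was reached by 10 of those that rose. Cd36 (chromosome 5, 17781690 to 17888801), a fatty acid and lipoprotein scavenger receptor, stood at 12.6, 7.53, 16.9, 14.1 and 14.3 FPKM in NC_RIC and 126.5, 214, 178 and 147 in CDAHFD_RIC. No sample of one diet came near those of the other, and the difference was 3.59 (SE 0.25, adjusted p = 4.79e-10). Cidec, which enlarges droplets by fusion, rose from 7.501 ± 2.78 to 82.0 ± 37.2, Plin2, the droplet coat protein of hepatocytes, from 115 ± 37.2 to 353 ± 73.0, and Lpl, lipoprotein lipase, from 0.846 ± 0.142 to 53.4 ± 15.1. Lpl, Fabp4 and Fabp5 are also expressed by macrophages, whose markers rose in the same samples, and the part of either source was not tested. Slc27a5, the bile acid and very long-chain acyl-CoA synthetase of hepatocytes, fell from 263 ± 46.1 to 141 ± 18.3.

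VLDL assembly moved less as a group: 7 of 21 genes rose and 5 fell, with a median of 0.02 (3 and 13 after median-ratio scaling). Apoa4 (chromosome 9, 46240696 to 46243459), an apolipoprotein known to follow hepatic triglyceride, had the largest rise of the list, at 100.8, 107, 219, 145 and 246 FPKM in NC_RIC and 1137, 4833, 4708 and 2633 in CDAHFD_RIC. The lowest CDAHFD value belonged to sample 1 and was still above all chow values (difference 4.22, SE 0.44, adjusted p = 1.16e-07). Pltp, the phospholipid transfer protein, rose from 1.71 ± 0.402 to 15.98 ± 5.54. Apob, the structural protein of VLDL, and Mttp, which loads it with lipid, did not pass as deposited (-0.064 and 0.058, adjusted p = 0.813 and 0.673), and both were lower after median-ratio scaling (-0.63 and -0.50, adjusted p = 0.032 and 8.21e-04).

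Fatty acid synthesis genes moved in both directions. Of 20 tested, 8 rose and 7 fell (3 and 9 after median-ratio scaling). Fads2, a desaturase of polyunsaturated fatty acids, rose from 64.9 ± 10.3 to 197 ± 38.2, Scd1, which makes monounsaturated fatty acids, from 209.6 ± 43.4 to 467 ± 161, and Srebf1, which encodes the lipogenic factor SREBP-1, from 2.08 ± 0.360 to 6.54 ± 3.09. After median-ratio scaling the difference of Scd1 was 0.55 and did not pass (adjusted p = 0.17). Fasn, fatty acid synthase, fell from 2.81 ± 0.683 to 1.63 ± 0.773, Me1, which supplies NADPH, from 32.1 ± 4.30 to 15.2 ± 0.293, and Lpin1, a phosphatidate phosphatase, from 16.5 ± 4.99 to 3.61 ± 2.24.

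Cholesterol synthesis fell. Of 26 genes 14 fell and 1 rose, with a median of -0.59 (22 and 0 after median-ratio scaling). Idi1 (chromosome 13, 8885501 to 8892451), the isopentenyl diphosphate isomerase, read 52.4, 10.01, 10.6, 13.8 and 17.2 FPKM in NC_RIC and 2.52, 0.818, 1.14 and 1.39 in CDAHFD_RIC. NC_RIC sample 1 was the highest, well above the other chow samples, and all chow samples lay above all CDAHFD samples (difference -2.90, SE 0.43, adjusted p = 8.32e-06). Cyp51 fell from 22.1 ± 8.45 to 2.68 ± 0.889, Msmo1 from 21.9 ± 7.61 to 2.81 ± 0.388 and Tm7sf2 from 9.41 ± 1.10 to 0.908 ± 0.395, all 3 in the later sterol steps, Sqle, the squalene epoxidase, from 3.53 ± 1.25 to 0.537 ± 0.118, and Insig1, a sterol-regulated brake on the pathway, from 44.9 ± 12.1 to 14.5 ± 6.74. Scap, which escorts the SREBP factors, was the one that rose (from 4.49 ± 0.593 to 5.74 ± 0.216, 0.30), and its difference was -0.17 after median-ratio scaling (adjusted p = 0.0688).

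Bile acid genes moved in both directions, with falls of synthesis enzymes and rises of exporter genes among the members named here, apart from Slc51a. In all, 12 of 27 fell and 10 rose (18 and 3 after median-ratio scaling). Cyp7a1, the rate-limiting enzyme of bile acid synthesis, read 52.3, 56.5, 66.2, 40.9 and 63.5 FPKM in NC_RIC and 29.8, 17.8, 47.5 and 24.5 in CDAHFD_RIC, and fell by 0.95 (adjusted p = 0.0238). CDAHFD_RIC sample 3 lay within the chow values, and the call was lost without sample 2 (adjusted p = 0.0949) or sample 4 (adjusted p = 0.0569) of that group. Cyp8b1, the sterol 12-hydroxylase that sets the make-up of bile acids, fell from 112 ± 12.8 to 40.8 ± 24.0, and Cyp7b1, of the alternative route, from 53.1 ± 14.8 to 6.44 ± 2.24. Slc10a1, the bile salt uptake carrier, fell from 225 ± 43.2 to 144 ± 30.7. The exporter Abcc4 and the exporter subunit Slc51b rose, from 0.241 ± 0.112 to 3.20 ± 1.002 and from 0.234 ± 0.269 to 5.18 ± 1.44, from chow levels well under 1 FPKM. Slc51a, the other subunit, was under the filter at 0.168 ± 0.105 and 0.220 ± 0.139. With no filter it did not pass (0.060, adjusted p = 0.662). Abcc2, an exporter of the canalicular membrane, rose from 44.7 ± 2.90 to 77.4 ± 12.5 as deposited and did not pass after median-ratio scaling (0.21, adjusted p = 0.109).

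Among genes that follow fasting and glucose production, 10 of 23 rose (43.5%, against 63.6% of all tested genes) and 3 fell (13.0% against 6.68%). The median was 0.42, beside 0.42 over all genes, and 4 rose and 8 fell after median-ratio scaling. The feeding state at harvest is not in the labels. Pdk4 (chromosome 6, 5483351 to 5496309), the kinase that shuts off pyruvate oxidation, stood at 4.12, 4.24, 4.86, 12.5 and 6.801 FPKM in NC_RIC and 54.6, 54.2, 26.0 and 83.6 in CDAHFD_RIC. The lowest CDAHFD sample, sample 3, still stood above the highest chow sample, sample 4 (difference 2.88, SE 0.46, adjusted p = 2.29e-05). Fgf21, a hormone released by the fasting or stressed liver, rose from 2.80 ± 1.21 to 17.1 ± 6.75, and Gpt2, a mitochondrial alanine aminotransferase, from 81.2 ± 5.28 to 178 ± 43.7. G6pc, which releases free glucose, did not pass (-0.53, adjusted p = 0.299).

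Of 29 genes of fatty acid oxidation and ketogenesis 20 rose (69.0%, against 63.6% of all tested genes) and 1 fell, with a median of 0.60 beside 0.42 over all genes, and after median-ratio scaling 5 rose and 4 fell, a smaller share of rises than the 25.3% of all genes. Cpt1a, the gate of mitochondrial fatty acid entry, read 36.7, 38.9, 45.7, 40.5 and 48.1 FPKM in NC_RIC and 83.6, 106, 112 and 104 in CDAHFD_RIC, without overlap (difference 1.25, SE 0.10, adjusted p = 5.01e-09). Acot2, a mitochondrial acyl-CoA thioesterase, rose from 6.11 ± 1.26 to 59.7 ± 17.8 and Bdh1, which makes 3-hydroxybutyrate, from 25.1 ± 2.57 to 66.6 ± 10.3. Respiratory chain subunits showed 21 rises among 31 (67.7%, against 63.6% of all tested genes) and no fall as deposited. They showed no rise and 13 falls after median-ratio scaling. Their median as deposited was 0.36 against 0.42 over all genes. In the urea cycle and amino acid catabolism 6 of 31 rose and 7 fell (0 and 20 after scaling), with falls of the tryptophan-catabolizing genes Haao (from 47.9 ± 2.71 to 21.2 ± 7.02), Kmo (from 92.4 ± 8.84 to 58.4 ± 6.15) and Kynu (from 26.5 ± 3.39 to 15.8 ± 3.003). Clock genes showed 9 rises among 16 (56.25%, against 63.6% of all tested genes) and 3 falls (4 and 5 after scaling). Dbp, an output factor of the clock, rose from 2.24 ± 1.47 to 15.0 ± 3.17, and the harvest times are not in the labels.

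Among targets of NRF2, the factor that answers oxidative and electrophilic stress, and glutathione transferases, 20 of 29 rose (69.0%, against 63.6% of all tested genes) and 4 fell (13.8% against 6.68%), with a median of 0.92 against 0.42 over all genes (16 and 6 after median-ratio scaling, where 25.3% of all genes rose). Hmox1 (chromosome 8, 75093621 to 75100589), heme oxygenase, read 5.27, 3.20, 2.95, 4.05 and 2.43 FPKM in NC_RIC and 38.3, 75.4, 46.0 and 65.9 in CDAHFD_RIC, far apart in all samples (difference 3.63, SE 0.21, adjusted p = 3.62e-11). Nqo1, a quinone reductase, rose from 5.83 ± 1.29 to 23.8 ± 3.08 and Cbr3, a carbonyl reductase, from 0.283 ± 0.165 to 8.20 ± 2.19. Nfe2l2, which encodes NRF2, rose from 8.02 ± 1.73 to 24.8 ± 2.51. Gstp1, a glutathione transferase that is higher in male liver, fell from 412 ± 116 to 144 ± 46.5.

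The unfolded-protein and integrated stress response genes moved in both directions. Creld2, a chaperone-like protein of the endoplasmic reticulum, fell from 25.1 ± 10.6 to 7.59 ± 2.41. Asns (asparagine synthetase) and Trib3, both targets of the integrated stress response factor ATF4, rose from 2.34 ± 1.57 to 8.27 ± 0.430 and from 1.22 ± 0.483 to 5.07 ± 2.10, and Gdf15, a stress hormone that also acts on appetite, from 0.632 ± 0.180 to 9.61 ± 3.78. Over the whole list 11 of 27 rose and 8 fell (8 and 16 after median-ratio scaling). Atf3 (chromosome 1, 191170296 to 191218039), induced by many stresses, read 0.343, 0.279, 0.218, 0.759 and 0.521 FPKM in NC_RIC and 12.5, 12.7, 6.79 and 9.37 in CDAHFD_RIC (difference 2.97, SE 0.16, adjusted p = 1.38e-11). Sample 3 was the lowest of the CDAHFD samples and all stayed far above chow. Immediate early genes, which respond within minutes to growth factors and stress, rose in 16 of 17 tested cases with no fall (13 after scaling). Among them were Klf6 (from 1.06 ± 0.140 to 15.9 ± 3.62) and Jun (from 3.75 ± 1.51 to 13.8 ± 5.69). Low genes reach the level for testing more easily when they are high in one diet. With no filter 19 of the 24 listed rose and none fell, against 34% of the 29754 genes then tested. Targets of p53 and death genes rose in 17 of 21 tested (81.0%, against 63.6% of all tested genes), and 11 rose and 1 fell after scaling. With no filter 22 of the 26 listed rose. Those that rose included Phlda3 (from 0.320 ± 0.221 to 4.11 ± 1.06) and Mlkl, the effector of necroptosis (from 0.794 ± 0.123 to 5.80 ± 1.42).

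Heat shock chaperones moved in both directions. Of 21 tested, 6 fell and 4 rose, with a median of -0.17 against 0.42 over all genes (16 and 2 after median-ratio scaling). The list is mostly of cytosolic chaperones and their partners but also holds the mitochondrial pair Hspd1 and Hspe1 and, untested, the factor Hsf1. Hsph1 (chromosome 5, 149614287 to 149636376), a nucleotide exchange factor of HSP70, stood at 9.57, 18.2, 12.9, 9.54 and 11.2 FPKM in NC_RIC and 3.66, 2.49, 1.99 and 2.68 in CDAHFD_RIC. All CDAHFD samples lay far below all chow samples (difference -1.82, SE 0.19, adjusted p = 1.37e-07). Hsp90aa1, the inducible HSP90, fell from 81.4 ± 24.6 to 44.4 ± 9.92, Dnaja1, an HSP40 co-chaperone, from 52.8 ± 5.59 to 33.4 ± 5.40, Fkbp4, a co-chaperone of steroid receptors, from 35.8 ± 7.47 to 23.2 ± 3.32, Chordc1, a partner of HSP90, from 8.54 ± 1.83 to 5.84 ± 0.735, and Hspa1b, an inducible HSP70, from 3.25 ± 0.937 to 1.79 ± 0.548 (-0.60, adjusted p = 0.0458). The call of Hspa1b was lost without any 1 of 6 libraries (samples 1, 2 and 3 of CDAHFD_RIC, samples 2, 4 and 5 of NC_RIC). Hspa1a and Hspa1b are near-identical copies, so their values are uncertain. Bag3, a co-chaperone of HSP70, rose from 3.81 ± 0.838 to 7.47 ± 0.780. The factor HSF1 binds inverted GAA units, and 5 of the 6 genes that fell have a promoter in the RefSeq table (GRCm38.p6, 250 bases before to 50 after the start of the gene). All 5 hold the pair GAANNTTC (its reverse complement is the same motif) in at least 1 of their windows, which 7.86% of all 32851 windows hold. The first count is by gene, which may have several windows, and the share is by window, so they are not directly comparable. The pair was not counted in the members that rose or did not pass, so its relation to the direction was not tested. A match is a description of the letters and shows neither binding nor a cause. The promoters of Hsph1 (minus strand, chr5:149636287-149636586) and Chordc1 (plus strand, chr9:18292017-18292316) are shown because these genes fell and carry the pair close to the start, with the pair in capitals:
Hsph1: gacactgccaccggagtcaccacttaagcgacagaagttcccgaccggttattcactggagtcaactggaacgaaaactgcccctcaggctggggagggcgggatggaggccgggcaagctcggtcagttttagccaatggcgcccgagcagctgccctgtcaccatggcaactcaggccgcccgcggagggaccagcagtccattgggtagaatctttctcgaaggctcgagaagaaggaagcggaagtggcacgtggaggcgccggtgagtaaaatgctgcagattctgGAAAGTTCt
Chordc1: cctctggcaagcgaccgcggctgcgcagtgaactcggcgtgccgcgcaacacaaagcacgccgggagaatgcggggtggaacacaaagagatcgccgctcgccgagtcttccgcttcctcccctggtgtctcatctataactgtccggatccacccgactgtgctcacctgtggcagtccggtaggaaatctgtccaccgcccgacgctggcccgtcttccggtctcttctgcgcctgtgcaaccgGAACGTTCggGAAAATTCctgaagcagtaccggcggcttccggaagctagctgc
Hsph1 has a single GAANNTTC pair, which lies after the start, and Chordc1 has 2 that follow each other across the start. Inverted GAA units in the other order were not searched for and are not in capitals. The Hsph1 sequence shown also holds units in that order before the start, so the single pair is not its only inverted arrangement.

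Acute phase and iron genes moved in both directions: 19 of 32 rose (59.4%, against 63.6% of all tested genes) and 8 fell (25% against 6.68%). After median-ratio scaling 15 rose and 10 fell, where 25.3% and 24.6% of all genes did. Lcn2 (chromosome 2, 32384633 to 32388252), lipocalin 2, which withholds iron from bacteria, read 2.32, 0.611, 2.61, 3.42 and 1.60 FPKM in NC_RIC and 171, 173, 88.6 and 152 in CDAHFD_RIC. CDAHFD_RIC sample 3 was the lowest of its group but far above every chow sample, and the difference was 5.60 (SE 0.26, adjusted p = 2.31e-12). Orm2, an alpha-1-acid glycoprotein, rose from 9.90 ± 1.999 to 168 ± 74.2, Apcs, serum amyloid P, from 53.4 ± 15.9 to 253 ± 29.3, and Saa1, serum amyloid A, from 13.2 ± 2.87 to 39.4 ± 20.0. Serpina3k, an abundant protease inhibitor of male liver, fell from 8576 ± 977 to 899 ± 179. Hamp, which encodes the iron hormone hepcidin, read 1527, 1415, 1571, 1944 and 2379 and 1224, 1850.1, 596 and 1064, with overlapping groups. It fell by 0.66 (adjusted p = 0.0289), a call that was lost without CDAHFD_RIC sample 3 (-0.37, adjusted p = 0.16) or any 1 of 3 other libraries (CDAHFD_RIC sample 4, NC_RIC samples 4 and 5).

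Macrophage markers rose. All 13 tested markers of lipid-associated macrophages, which gather in steatotic liver, rose (12 after median-ratio scaling), with a median of 3.12. All 16 tested monocyte and general myeloid markers rose on both scales (median 2.68), as did 14 of 15 markers of Kupffer cells, the resident macrophages of the liver (13 after scaling, median 2.50). In bulk tissue more cells of a type and more RNA per cell cannot be told apart. The summed level of the general myeloid markers was 30.1 to 52.5 FPKM in NC_RIC and 374 to 833 in CDAHFD_RIC, and that of the Kupffer cell markers 84.0 to 134 and 579.7 to 1045. Gpnmb (chromosome 6, 49036546 to 49070929), a glycoprotein of lipid-laden macrophages, was at 0, 0, 0.0206, 0 and 0 FPKM in NC_RIC and 38.9, 57.0, 20.8 and 49.4 in CDAHFD_RIC (difference 5.31, SE 0.19, adjusted p = 4.64e-14). Trem2, a lipid receptor of these cells, read 0.0910, 0.0891, 0.0395, 0.0449 and 0 and 4.39, 6.84, 2.85 and 6.86 (difference 2.51, adjusted p = 9.11e-11). In both genes samples 1 and 3 of CDAHFD_RIC were lower than samples 2 and 4, and all 4 were far above chow. Lgals3, galectin 3, rose from 1.08 ± 0.318 to 76.1 ± 21.1, Mmp12, the macrophage elastase, from 0.00418 ± 0.00935 to 37.3 ± 12.9, and Spp1, osteopontin, from 19.8 ± 5.12 to 197 ± 115.

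Kupffer cell genes did not all move to the same extent. Cd5l, a secreted protein of Kupffer cells, rose from 16.1 ± 4.45 to 223 ± 79.2, C1qb, of the first complement component, from 11.7 ± 3.23 to 121 ± 35.3, and Adgre1, of macrophages in general, from 1.43 ± 0.522 to 12.9 ± 5.67. Clec4f, the lectin that defines Kupffer cells in mice, read 21.7, 14.8, 13.5, 20.4 and 11.9 FPKM in NC_RIC and 33.7, 47.5, 41.6 and 37.5 in CDAHFD_RIC, a smaller rise (1.26, adjusted p = 4.14e-06). Timd4, a marker of long-resident Kupffer cells, read 1.68, 1.203, 1.18, 1.14 and 0.880 and 2.05, 2.02, 2.96 and 2.18; its difference of 0.58 passed as deposited (adjusted p = 0.00128) and was 0.23 after median-ratio scaling (adjusted p = 0.19).

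Markers of other leukocytes mostly stayed under the level for testing. Of 14 neutrophil, 21 T and NK cell and 14 B and plasma cell markers, 5, 5 and 5 reached it. All of these rose as deposited, and 4, 5 and 2 of them rose after median-ratio scaling. The neutrophil markers summed to 1.18 to 5.004 FPKM in NC_RIC and 20.1 to 31.5 in CDAHFD_RIC, the T and NK cell markers to 2.15 to 5.46 and 15.7 to 28.8, and the B and plasma cell markers to 8.93 to 29.9 and 28.9 to 59.4, where only this last sum overlapped between the groups. A marker reaches that level more easily when it is high in one diet, so the untested ones are part of the account: with no filter 8, 18 and 6 of the listed markers rose and none fell, against 34% of the 29754 genes then tested. S100a9, an alarmin of neutrophils and monocytes, rose from 0.577 ± 0.485 to 9.33 ± 1.31 and Il7r, the interleukin 7 receptor, from 0.0862 ± 0.0478 to 2.87 ± 0.766. Ly6g, the defining neutrophil antigen, stood at 0.0120 FPKM in CDAHFD_RIC and was listed at 0 in all NC_RIC samples.

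Chemokines, cytokines and their NF-kB feedback genes rose in 26 of 29 tested cases and fell in 1 (26 and 2 after median-ratio scaling, and 35 and 1 of all 42 with no filter). Ccl2, which recruits monocytes, read 0.247, 0, 0.128, 0 and 0 FPKM in NC_RIC and 8.88, 7.44, 4.73 and 7.60 in CDAHFD_RIC, without overlap (difference 2.90, SE 0.13, adjusted p = 1.94e-12). Ccl6, made by macrophages, rose from 4.26 ± 1.61 to 57.7 ± 16.6, Cxcl1, which attracts neutrophils, from 0.813 ± 0.285 to 9.93 ± 3.05, and Icam1, an adhesion molecule, from 0.660 ± 0.173 to 4.96 ± 0.636. Nfkbia and Tnfaip3, which NF-kB induces and which restrain it, rose from 13.2 ± 1.18 to 32.4 ± 6.803 and from 0.243 ± 0.102 to 3.11 ± 0.804. The one that fell was Cxcl13, a B cell attractant (from 1.52 ± 0.276 to 0.523 ± 0.453). Ubd, a ubiquitin-like protein induced by cytokines, was outside the list and had one of the largest rises (from 0.800 ± 0.512 to 74.3 ± 20.2, difference 5.39, adjusted p = 3.81e-12).

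For the NF-kB-like motif GGGNNTTTC, searched on both strands, 17 of the 26 genes of the list that rose have a promoter in the table. Of these, 7 hold it in at least 1 window (Ccl9, Cxcl1, Cxcl9, Csf1, Nfkbia, Nfkb2 and Tnfaip3), and 4.36% of all windows do. Here too the count is by gene and the share by window, and members that did not rise were not counted. The promoters of Cxcl1 (plus strand, chr5:90890995-90891294) and Ubd (plus strand, chr17:37193642-37193941) are shown because both genes rose strongly and hold it shortly before the start, with the matches in capitals:
Cxcl1: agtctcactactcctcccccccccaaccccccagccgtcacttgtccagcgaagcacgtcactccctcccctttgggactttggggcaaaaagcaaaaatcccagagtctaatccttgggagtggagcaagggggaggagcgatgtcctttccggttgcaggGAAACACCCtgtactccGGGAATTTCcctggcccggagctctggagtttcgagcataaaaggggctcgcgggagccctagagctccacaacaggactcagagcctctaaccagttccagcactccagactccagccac
Ubd: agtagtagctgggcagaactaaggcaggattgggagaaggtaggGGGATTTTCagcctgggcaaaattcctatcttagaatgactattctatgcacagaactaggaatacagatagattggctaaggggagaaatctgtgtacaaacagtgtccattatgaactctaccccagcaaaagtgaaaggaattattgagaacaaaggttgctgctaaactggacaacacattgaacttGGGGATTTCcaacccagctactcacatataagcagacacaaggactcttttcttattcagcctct
In Cxcl1 the matches begin 88 and 71 bases before the start, on opposite strands, and in Ubd 206 and 15 bases before it.

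Antigen presentation and interferon-stimulated genes rose in 17 of 18 and 24 of 27 tested cases with no fall as deposited (15 and 20 rose after median-ratio scaling, and 1 and 0 fell). The class II gene H2-Aa, which presents peptides to CD4+ T cells, rose from 2.30 ± 0.276 to 39.3 ± 10.05, and the class I gene H2-D1 from 115 ± 6.85 to 351 ± 51.3. Gbp2, an interferon-induced GTPase, rose from 0.750 ± 0.397 to 6.74 ± 1.96, and Cxcl10, which attracts T cells, from 0.262 ± 0.120 to 3.11 ± 1.37. Lysosomal genes rose in 22 of 24 cases and fell in 1 (20 and 2 after scaling), among them Ctss, the cathepsin of antigen-presenting cells (from 11.1 ± 4.02 to 286 ± 93.4), Cd63 (from 0.578 ± 0.0934 to 40.3 ± 10.04) and Ctsb (from 30.0 ± 4.53 to 165 ± 37.5).

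Most matrix genes rose. Of 41 listed matrix genes 30 were tested; 28 rose and 1 fell (27 and 2 after median-ratio scaling), with a median of 1.75. With no filter 39 of 41 rose and 1 fell. Col1a1 (chromosome 11, 94936224 to 94953042), the main chain of fibrillar collagen, read 0.0253, 0.0246, 0.0725, 0.0383 and 0.0657 FPKM in NC_RIC and 2.79, 3.35, 1.21 and 8.40 in CDAHFD_RIC. Sample 4 was the highest and sample 3 the lowest of the CDAHFD group, and all were above chow (difference 2.04, SE 0.33, adjusted p = 2.53e-05). Col3a1 rose from 0.508 ± 0.155 to 15.4 ± 8.38, Col4a1, of basement membranes, from 0.876 ± 0.240 to 11.4 ± 3.42, Timp1, an inhibitor of matrix proteases, from 0.0106 ± 0.0237 to 3.29 ± 1.72, and Dcn, the proteoglycan decorin, from 18.1 ± 2.46 to 83.2 ± 17.5. Col5a3 was the one that fell (from 2.05 ± 0.579 to 0.575 ± 0.231).

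Of 14 tested stellate cell markers 13 rose on both scales and none fell. Lrat, which stores vitamin A in quiescent stellate cells, rose from 1.29 ± 0.271 to 6.41 ± 1.48 and Vim, vimentin, from 1.14 ± 0.292 to 13.4 ± 4.67. Acta2, an actin that stellate cells make once they turn into myofibroblasts, read 0.211, 0.391, 0.0668, 0.159 and 0.169 and 1.38, 1.25, 1.27 and 2.77 (difference 1.12, adjusted p = 3.24e-04). Sinusoidal endothelial markers rose in 17 of 18 cases as deposited and 11 after scaling, with Mrc1, also a macrophage gene, the largest (from 2.48 ± 0.956 to 13.3 ± 4.22). Of 17 markers of bile duct and progenitor cells 9 were tested and all 9 rose (8 after scaling). With no filter all 17 rose, against 34% of the 29754 genes then tested. Krt8 and Krt18, keratins that hepatocytes also make, rose from 41.1 ± 6.98 to 192 ± 46.6 and from 50.9 ± 11.3 to 213 ± 37.3. Sox9, a ductal transcription factor, rose from 0.781 ± 0.178 to 1.57 ± 0.654. The call of Sox9 was lost after median-ratio scaling (0.22, adjusted p = 0.325) and without CDAHFD_RIC sample 4 (0.34, adjusted p = 0.0983). Over the same samples the summed stellate markers went from 18.7 to 27.9 FPKM in NC_RIC to 76.7 to 112 in CDAHFD_RIC, and the part of a changed mix of cells in the change of any single gene was not tested.

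Genes of DNA replication and mitosis rose in 16 of 19 tested cases and fell in 1 (15 and 2 after median-ratio scaling; 29 and 1 of all 32 with no filter). Ccnd1 (chromosome 7, 144929931 to 144939925), cyclin D1, which drives entry into the cell cycle, stood at 1.75, 1.08, 0.961, 1.21 and 1.47 FPKM in NC_RIC and 58.4, 39.0, 21.7 and 29.1 in CDAHFD_RIC, with every CDAHFD sample far above every chow sample (difference 3.97, SE 0.21, adjusted p = 1.52e-11). Mcm6, of the replicative helicase, rose from 0.336 ± 0.0682 to 5.03 ± 1.94. Mki67, the proliferation marker, read 0.114, 0.0365, 0.0406, 0.0872 and 0.0538 and 1.95, 2.12, 2.14 and 2.32 (difference 1.55, adjusted p = 1.26e-08).

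The diet difference of conditioned mice was set beside that of sham mice, which uses no sample in common. In sham mice 7852 genes passed (74.2%), 6762 higher (63.9%) and 1090 lower (10.3%). Of the calls, 6336 were made in both comparisons in the same direction, which is 85.2% of those in conditioned and 80.7% of those in sham mice. Across the 10577 genes the differences had a Pearson r of 0.892, given as a description, since genes are not independent and all 4 groups come from the same table. The difference between the diet effects of conditioned and sham mice was tested as an interaction (CDAHFD_RIC minus NC_RIC, minus CDAHFD_sham minus NC_sham). It passed for 711 genes (6.72%), positive for 380 (3.59%) and negative for 331 (3.13%), and 2439 had an unadjusted p under 0.05. This count depended on single libraries: it was 438 without NC_sham sample 2, 469 without CDAHFD_sham sample 3, 474 without CDAHFD_RIC sample 2 and 1042 without CDAHFD_sham sample 2. Among the 711, 268 had passed in the same direction in both comparisons, with 224 of them smaller and 44 larger in conditioned mice, 151 had passed in conditioned mice only, 217 in sham mice only and 75 in opposite directions.

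**Figure D3:**
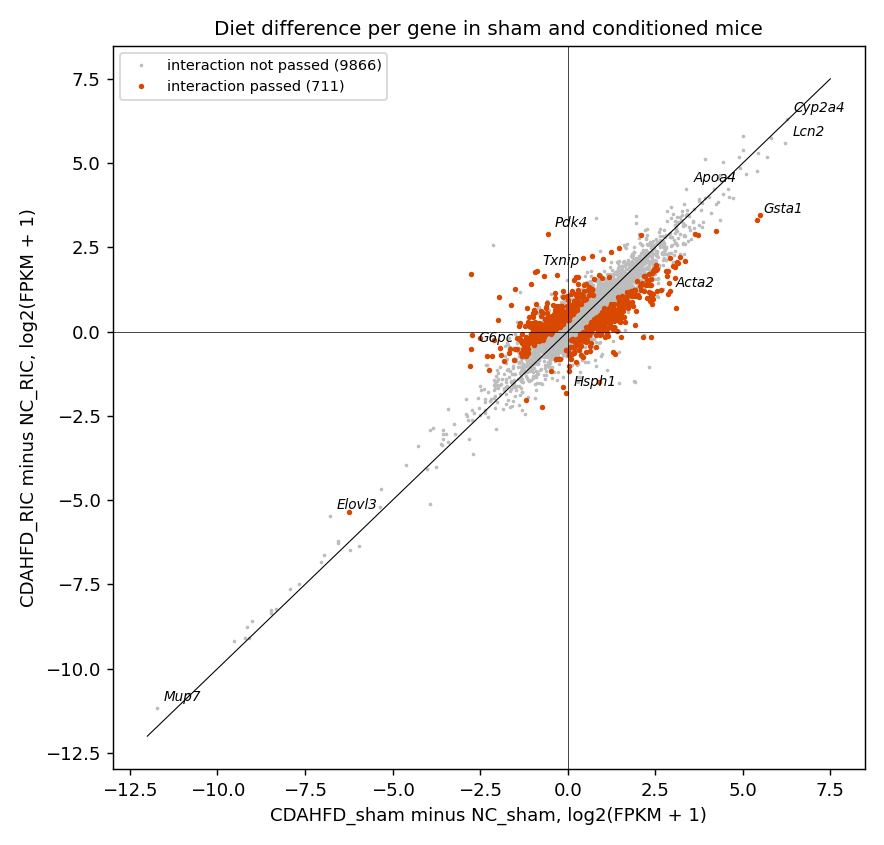
Diet difference of each of the 10577 tested genes in sham mice (horizontal axis) and in conditioned mice (vertical axis), both on the log2(FPKM + 1) scale, with the 711 genes that passed the interaction in orange and the line of equal differences. Mup7, Elovl3, Lcn2 and Cyp2a4 lie near the line, while Pdk4 and Txnip lie above it and Gsta1, Acta2 and Hsph1 below it.

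In the list of fasting and glucose genes, 10 of 23 passed the interaction (9 positive), against 6.72% of all genes. The list's median was 0.42 in conditioned and -0.33 in sham mice, beside 0.42 and 0.45 over all tested genes. Pdk4 differed by 2.88 in conditioned mice and -0.56 in sham mice, where it did not pass (22.2 ± 18.1 to 12.1 ± 4.79 FPKM, adjusted p = 0.249), an interaction of 3.45 (SE 0.64, adjusted p = 0.00406). Txnip, a glucose-induced regulator of redox and glucose uptake, rose in conditioned mice (from 27.6 ± 13.4 to 88.7 ± 16.2) and fell in sham mice (59.3 ± 17.96 to 30.3 ± 6.69), an interaction of 2.69 (adjusted p = 8.92e-04). G6pc differed by -0.53 and, in sham mice, fell from 159 ± 36.2 to 27.8 ± 16.9 (interaction 2.22, adjusted p = 0.0373); this interaction missed the threshold when any 1 of 10 libraries was left out (adjusted p up to 0.0712). In CDAHFD_sham, samples 2 and 5 had the lowest G6pc of the 5 (34.2, 5.87, 37.0, 46.9 and 14.8 in samples 1 to 5). Without these 2 samples, an alternative chosen after the values were seen, the interaction passed for 1266 genes.

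Among fatty acid oxidation genes 6 of 29 passed the interaction, all positive, against 6.72% of all genes. The list's medians were 0.60 in conditioned and 0.09 in sham mice. It shares Pdk4 and Cpt1a with the fasting list, so the counts of these lists are not independent. Cpt1a rose by 1.25 in conditioned and by 0.30 in sham mice (interaction 0.95, SE 0.14, adjusted p = 9.31e-04), and its mean was 42.0 ± 4.75 in NC_RIC and 60.4 ± 5.76 in NC_sham. Ppara, the nuclear receptor that governs these genes, differed by 0.29 in conditioned mice (-0.25 after median-ratio scaling), which did not pass, and fell by 1.14 in sham mice (interaction 1.42, adjusted p = 0.00779). Acacb, which makes the malonyl-CoA that inhibits Cpt1a, differed by 0.16, which did not pass (0.30 with a common sum, adjusted p = 0.0332, and -0.35 with quantile normalization, adjusted p = 0.0209), and fell by 1.23 in sham mice, and had one of the smallest p of the interaction (1.38, adjusted p = 2.54e-04). Ppm1k, the phosphatase that switches on branched-chain amino acid breakdown, read 15.9, 17.6, 15.4, 19.2 and 18.7 and 23.3, 19.8, 15.7 and 20.9 FPKM in conditioned and 14.2, 19.7, 18.8, 18.5 and 20.53 and 6.33, 6.09, 6.45, 8.37 and 5.05 in sham mice. The direction in conditioned mice, where the groups overlapped, rested on the scaling: the difference was 0.18 as deposited (adjusted p = 0.222), 0.37 with a common sum (adjusted p = 0.011) and -0.36 after median-ratio scaling (adjusted p = 0.0429). Sham groups did not overlap (interaction 1.56, SE 0.18, adjusted p = 2.54e-04). Mat1a and Lpcat3, described above, also passed with a positive interaction (1.08 and 0.74, adjusted p = 0.0191 and 0.00864), and Mat1a fell in sham mice (2096 ± 202 to 1071 ± 202).

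In heat shock chaperones 9 of 21 members passed the interaction, against 6.72% of all genes, and all 9 were negative. The list's medians were -0.17 in conditioned and 0.41 in sham mice. Hsph1 stood at 17.2 ± 4.17 in NC_sham and 16.4 ± 2.65 in CDAHFD_sham, a difference of -0.039 that did not pass (adjusted p = 0.853; interaction -1.78, SE 0.26, adjusted p = 9.31e-04). Fkbp4 fell in conditioned and rose in sham mice by 0.65 (interaction -1.24, adjusted p = 0.00251). Hspa1b rose in sham mice from 14.5 ± 5.08 to 37.0 ± 13.1 (interaction -1.88, adjusted p = 0.00449). The 2 chow groups themselves differed, at 14.5 ± 5.08 (sham) and 3.25 ± 0.937 (conditioned). The conditioned mean lay below the sham mean on both diets. Extraction and handling of the samples are not given by group, and their part was not tested.

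**Figure D4:**
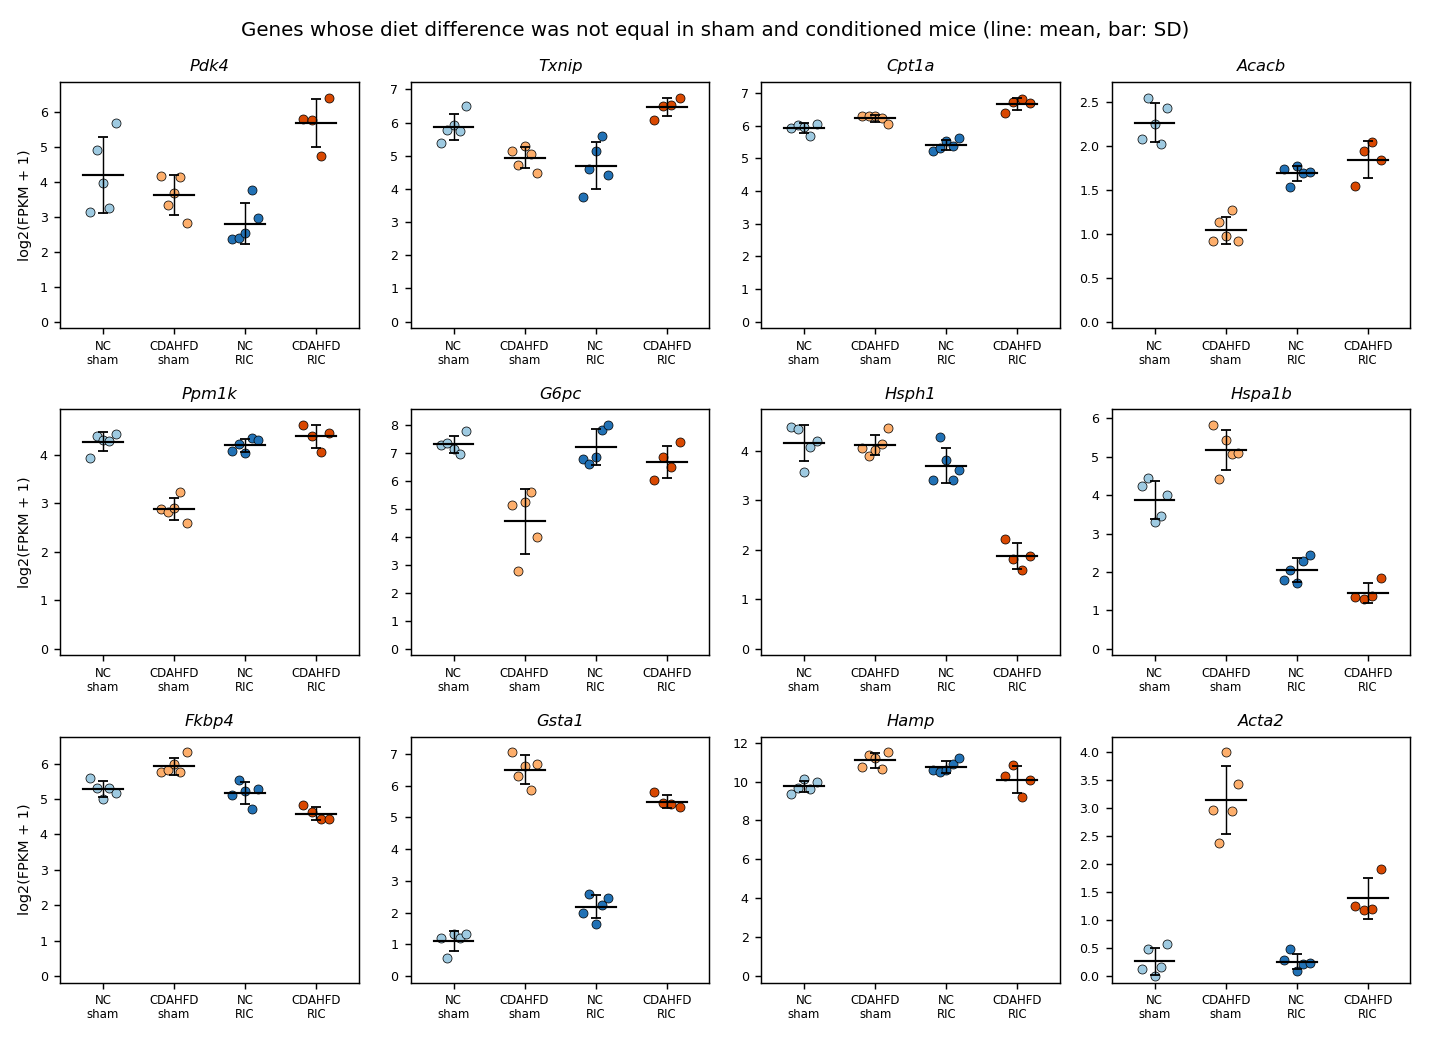
Level of 12 genes that passed the interaction, as log2(FPKM + 1), in each sample of NC_sham, CDAHFD_sham, NC_RIC and CDAHFD_RIC, with the mean (line) and SD (bar). By group mean Pdk4 and Txnip are highest in CDAHFD_RIC, Hsph1 is lowest in CDAHFD_RIC, and Gsta1 and Acta2 are raised by the diet in both pairs but less in conditioned mice.

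Several glutathione, stress and stellate genes rose less in conditioned than in sham mice. Among NRF2 targets and glutathione transferases only 2 of 29 passed the interaction, a share close to the 6.72% of all tested genes. Of the 14 tested stellate cell markers 3 passed it, and all of these interactions were negative. Gsta1, a glutathione transferase that is a close copy of Gsta2, rose from 3.66 ± 1.13 to 44.6 ± 7.05 in conditioned and from 1.201 ± 0.417 to 93.4 ± 28.03 in sham mice (interaction -2.08, SE 0.30, adjusted p = 8.92e-04). Mgst3, a microsomal glutathione transferase, read 8.07, 9.03, 7.80, 6.54 and 7.5001 and 31.8, 35.5, 36.6 and 38.2 in conditioned mice and rose by 2.06, against 3.13 in sham mice (interaction -1.08, adjusted p = 3.90e-04). Acta2 rose by 1.12 against 2.87 in sham mice, where its mean reached 8.44 ± 4.09 FPKM (interaction -1.75, adjusted p = 0.00399). Immediate early genes passed in 6 of 17 cases, all negative, with Jun rising by 1.58 against 3.06 (interaction -1.48, adjusted p = 0.0218). In the list of chemokines, cytokines and NF-kB feedback genes 8 of 29 passed, all negative, with Ccl2 at 2.90 against 3.62 (interaction -0.72, adjusted p = 0.0238, which rose to 0.308 with a pseudocount of 0.1). Hamp fell in conditioned and rose in sham mice (872 ± 180.0 to 2246 ± 571; interaction -2.01, adjusted p = 0.00295), and its chow groups also differed in mean, 872 ± 180.0 in NC_sham and 1767 ± 396 in NC_RIC. For the collagen Col1a1 (2.04 against 3.02) and the macrophage gene Trem2 (2.51 against 2.79) the interaction did not pass (-0.98 and -0.28, adjusted p = 0.206 and 0.447). That of Col1a1 passed without CDAHFD_RIC sample 4 (-1.35, adjusted p = 0.0472) or without CDAHFD_sham samples 2 and 5 (-1.46, adjusted p = 0.0271). No member of the lipid-associated macrophage or general myeloid lists passed the interaction.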

How the data were processed

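Per the labels' protocols, bulk libraries were prepared with a VAHTS kit from Trizol-extracted liver RNA. Per the submitters' processing notes, the tools included HISAT2 2.2.1 and HTSeq 0.13.5, with FastQC 0.11.9 and Trimmomatic 0.38, as well as R 3.4.1 with DESeq2 1.18.1, on build mm10. Not given in the sources used here are the FPKM program, strandedness, batches and harvest times, and reads of overlapping or antisense genes cannot be told apart. The authors deposited FPKM per gene for all samples in a single table of 55335 entries, and the 3225 without a gene name were left out. FPKM are not counts, and low values were not whole multiples of 1 read, so no count test was run.

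From the deposited FPKM, log2(FPKM + 1) was computed, and the 10577 genes averaging 1 FPKM or more over all 19 samples were tested with limma 3.58.1 (R 4.3.3; 4 group means, 15 residual degrees of freedom, moderated with a trend, Benjamini-Hochberg adjustment over all tested genes). The fit was tested on simulated data. Depth was estimated from the most common lowest values of single-exon genes. Promoters are from RefSeq (GRCm38.p6) and gene positions from GENCODE on mm10. Alternatives were the pseudocount, the filter, 4 scalings, array weights, only the groups compared, a replicate block and each library left out. Gene lists and members were chosen with earlier results of these data known. Named genes are the 12 largest rises and falls with groups apart, up to 5 members of each list by smallest p, a short set of pathway genes, and the 10 smallest p and 10 largest sizes of the interaction. A few genes are not reported here. Of the 154 tested genes given with values, 23 lie outside that rule and were chosen after their values were seen: Ahcy, Asns, Chordc1, Col5a3, Creld2, Cxcl1, Cxcl13, Cyp2a5, Cyp4a10, Cyp4a12a, Fkbp4, Gstp1, Hsp90aa1, Jun, Nfkbia, Ppara, Scap, Slc10a1, Slc27a5, Socs2, Stat5b, Tnfaip3 and Trib3. The untested Ly6g, Cyp2b10 and Slc51a were chosen likewise.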

Additional observations from a re-analysis of the deposited data

Results flagged for a closer look

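In 18 of 303 combinations of a gene named above and a group of the 9 conditioned samples, 1 sample lay outside the others by Dixon's criterion, which chance alone meets in about 1 of 20 groups; 15 were high and 3 low. CDAHFD_RIC sample 1 stood apart in Cyp2c54 (20.49 FPKM, the others 6.17 to 7.56), Mup20 (2092 FPKM, the others 908 to 984) and Srebf1 (11.2 FPKM, the others 4.66 to 5.35). CDAHFD_RIC sample 2 stood apart in Ccl6 (82.5 FPKM, the others 48.7 to 50.2). CDAHFD_RIC sample 3 stood apart in Bdh1 (51.3 FPKM, the others 69.7 to 73.2), Dnaja1 (41.5 FPKM, the others 30.1 to 31.0) and Tnfaip3 (1.93 FPKM, the others 3.34 to 3.70). CDAHFD_RIC sample 4 stood apart in Acta2 (2.77 FPKM, the others 1.25 to 1.38) and Hspa1b (2.61 FPKM, the others 1.44 to 1.58). NC_RIC sample 1 stood apart in Timp1 (0.0530 FPKM, with the others at 0). NC_RIC sample 2 stood apart in Hsp90aa1 (124 FPKM, the others 62.2 to 75.4). NC_RIC sample 3 stood apart in Cyp2a4 (2.89 FPKM, the others 0 to 0.444) and Gpnmb (0.0206 FPKM, with the others at 0). NC_RIC sample 4 stood apart in Gpt2 (90.3 FPKM, the others 77.3 to 80.6), Krt18 (31.7 FPKM, the others 51.0 to 59.8) and Mmp12 (0.0209 FPKM, with the others at 0). NC_RIC sample 5 stood apart in Nfe2l2 (11.1 FPKM, the others 6.76 to 7.70) and Socs2 (2.44 FPKM, the others 0.587 to 0.850). 

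The diet difference was not the same in conditioned and sham mice, by limma's interaction test at an adjusted p under 0.05, for 33 of the 154 genes named above. The interaction, conditioned minus sham on the log2(FPKM + 1) scale, was positive for Pdk4 (3.45), Txnip (2.69), G6pc (2.22), Ppm1k (1.56), Fgf21 (1.54), Ppara (1.42), Acacb (1.38), Trib3 (1.12), Mat1a (1.08), Cpt1a (0.95), Slco1a1 (0.90), Abcc2 (0.79), Lpcat3 (0.74), Timd4 (0.65), Fads2 (0.59), Kynu (0.58), Scap (0.53) and Kmo (0.52). It was negative for Gsta1 (-2.08), Hamp (-2.01), Hspa1b (-1.88), Hsph1 (-1.78), Acta2 (-1.75), Jun (-1.48), Atf3 (-1.27), Fkbp4 (-1.24), Cxcl10 (-1.18), Mgst3 (-1.08), Mki67 (-0.84), Krt8 (-0.72), Ccl2 (-0.72), Icam1 (-0.71) and Dnaja1 (-0.69). These genes were named for other reasons or for this difference, so their number is no measure of how common it was, which is 6.72% over all tested genes. With 1 of the 19 libraries left out at a time, the interaction missed the threshold for Fads2 (without any 1 of 15, adjusted p up to 0.0923), Fgf21 (without any 1 of 12, adjusted p up to 0.0929), G6pc (without any 1 of 10, adjusted p up to 0.0712), Krt8 (without any 1 of 13, adjusted p up to 0.0826), Kynu (without any 1 of 15, adjusted p up to 0.0935) and Timd4 (without any 1 of 14, adjusted p up to 0.1). That of Slco1a1 missed it without NC_sham sample 2 (adjusted p = 0.0509) or CDAHFD_RIC sample 2 (adjusted p = 0.0588), and that of Trib3 without CDAHFD_RIC sample 2 (adjusted p = 0.05002). Other settings also lost interactions: Mki67 with a pseudocount of 0.1 (adjusted p = 0.123) and Dnaja1 with a common sum (adjusted p = 0.0717). Jun and Mat1a lost theirs with no filter (adjusted p = 0.0617 and 0.0573). Ccl2 also lost it with no filter, median-ratio scaling and quantile normalization (adjusted p = 0.058, 0.0504 and 0.0523).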

How the results depend on the processing

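The counts rested on the level filter and the scaling. With a filter at a mean of 5 FPKM, 3401 genes passed in CDAHFD_RIC against NC_RIC (2912 higher, 792 with a difference of at least 1), 3562 in the sham groups and 386 in the interaction, as fewer genes were tested. With no filter 10131 genes were higher in conditioned mice and 12361 passed in sham mice. A pseudocount of 0.1 gave 2591 differences of at least 1, and quantile normalization 1075. Median-ratio scaling and quantile normalization gave 2673 and 2547 higher and 2597 and 2854 lower genes, and scaling to a common sum 461 lower genes. Leaving out 1 library at a time gave 6877 to 7317 calls in conditioned mice, 7587 to 7795 calls in sham mice and 438 to 1042 calls in the interaction, each time from the groups compared. Without a library of the other 2 groups, which enter through the shared spread, 7379 to 7505 genes passed in conditioned mice and 7825 to 7883 genes passed in sham mice. Without CDAHFD_sham samples 2 and 5, chosen after seeing the data, the interaction had 1266 calls.

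Among the named genes, the difference in conditioned mice turned in sign (that of Alb went to 0) after median-ratio scaling for Acacb (-0.24), Cyp2a5 (-0.061), Mat1a (-0.47), Mttp (-0.50), Pemt (-0.012), Ppara (-0.25), Ppm1k (-0.36), Scap (-0.17) and Stat5b (-0.086). It turned with quantile normalization for Acacb (-0.35), Alb (0.00), Apob (0.19), Cyp2e1 (0.20), Mttp (-0.25), Ppara (-0.13), Ppm1k (-0.24), Scap (-0.20), Sox9 (-0.025) and Stat5b (-0.11). It turned with a common sum for Apob (0.14) and Cyp2e1 (0.17). It turned with a common sum without major urinary proteins for Apob (0.063) and Cyp2e1 (0.092). With 1 library left out at a time the sign turned for Apob (-0.17 to 0.12), Cyp2e1 (-0.14 to 0.070) and Mat1a (-0.038 to 0.26), none of which passed as deposited. Calls lost with a common sum were those of Chordc1 (-0.29, adjusted p = 0.079), Cyp4a10 (-0.51, adjusted p = 0.146), Cyp7a1 (-0.75, adjusted p = 0.0623), Hamp (-0.46, adjusted p = 0.126), Hnf4a (-0.22, adjusted p = 0.118), Hspa1b (-0.46, adjusted p = 0.0972) and Igf1 (-0.22, adjusted p = 0.159). Calls lost with quantile normalization were those of Acta2 (0.60, adjusted p = 0.0505), Ahcy (-0.23, adjusted p = 0.209), Cyp4a10 (-0.19, adjusted p = 0.65), Hamp (-0.17, adjusted p = 0.638) and Timd4 (0.075, adjusted p = 0.672). Besides Acacb and Ppm1k, genes that passed as higher under an alternative alone were Cyp2a5 with a common sum (0.71), Mat1a with quantile normalization (0.57) and Ppara without CDAHFD_RIC sample 4 (0.50). Of 154 named genes, 127 kept their direction and their side of the threshold under every alternative that tested them, and of 35 interactions given with a value 21 did.

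The groups share replicate numbers, but nothing in the labels ties the samples of a number together. Deviations of same-numbered conditioned samples from their group means had correlations of -0.0638 to 0.0664 across genes, and of the 4 CDAHFD_RIC samples only sample 3 correlated best with its own number. With the replicate number as a block, 7450 genes passed in conditioned mice, 7857 in sham mice and 600 in the interaction. The depth is an estimate, so genes near 0 FPKM have no stated detection limit.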
